A study of Homo sapiens with 6 samples.

Results

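The genes described here activate long-chain fatty acids and build glycerolipids from them. They are the 10 genes ACSL1, ACSL3, ACSL4, ACSL5, GPAM, AGPAT1, LPIN1, LPIN2, DGAT1 and DGAT2, taken by symbol from a count table of 26485 genes, and each of the 10 was present and passed the filter on low counts. RNA was sequenced from 3 libraries of H9 cells given PA4 at 1 µM for 24 h and from 3 libraries of H9 cells given the vehicle DMSO for 24 h, called control. H9 is an established human T lymphoma cell line, labelled a cutaneous T lymphocyte, and both groups were grown in the same serum-containing medium. PA4 is known here only by this code, in a series whose title speaks of a berbamine derivative and lymphoma. A single cell line, dose and time stand for the treatment, and nothing in the labels says that replicates were grown separately. Each p-value therefore rests on the spread among 3 libraries a group, which may be technical.

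A fatty acid must be joined to coenzyme A before a cell can store it, build membranes with it or burn it. Acyl-CoA synthetases do this, and the acyl groups are then added to glycerol 3-phosphate, first by glycerol-phosphate acyltransferases such as GPAM and then by acylglycerol-phosphate acyltransferases such as AGPAT1, which gives phosphatidate. Lipins remove the phosphate to give diacylglycerol, and DGAT1 and DGAT2 add the last acyl group to make triglyceride. In lymphocytes the same diacylglycerol also feeds membrane phospholipids. Several of these genes are known targets of SREBP, the factor family that also drives sterol and fatty acid synthesis.

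Libraries held 18282212 to 22875191 counts. The T cell markers matched the label, with a sum of 16937 to 22117 counts over 10 genes per PA4 library and 17893 to 19164 per control library. Since adipocytes and hepatocytes use this pathway heavily, their markers were checked too. ADIPOQ and FABP4 were at 0 in all 6 libraries, LEP, CIDEC and LPL had at most 1 count and PLIN1 at most 2. LIPE, the hormone-sensitive lipase gene, had 115 to 183 counts with PA4 and 141 to 185 in control. The adipocyte sum of 4415 to 5466 counts per PA4 library and 4236 to 4334 per control library was nearly all ADIPOR2, a receptor expressed in many cell types, with 4300 to 5281 counts in PA4 libraries and 4050 to 4191 in control libraries. The 8 hepatocyte markers summed to at most 1 count with PA4 and 2 in control. The sums for B cell, myeloid and fibroblast markers were 356 to 489, 15 to 36 and 16 to 28 counts with PA4, against 353 to 422, 21 to 34 and 12 to 20 in control.

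With PA4 the RNA of this pathway was close to its control level. The quasi-likelihood test of edgeR called 0 of the 10 genes higher, where it called 0.215% of all 12107 tested genes, and 0 lower, where it called 0.0165%. In either direction it called 0.231% of all tested genes. DESeq2 and limma-voom also called 0 of the 10, against 0.423% and 0.223% of the genes they tested. Without adjustment, at p under 0.05, edgeR gave 2 of the 10 higher, LPIN1 and ACSL4, beside 2.69% of tested genes, and 0 lower, beside 2.6% (5.29% in either direction). DESeq2 and limma-voom also gave 2 higher and 0 lower without adjustment, beside 1.13% and 2.77% of genes higher. Leaving out control replicate 3 changed the edgeR count to 4, leaving out control replicate 2 changed it to 0, and it was 1 when PA4 replicate 1, PA4 replicate 3 or control replicate 1 was dropped. The log2 fold changes of PA4 over control ran from -0.052 to 0.10, with a median of 0.020 and positive values in 6 of 10, beside a median of -0.0040 and positive values in 5761 of 12107 tested genes. Because whole cultures were sequenced, fewer cells using a gene and less RNA of it per cell cannot be told apart.

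The 95% intervals were narrow, but like the p-values they rest on a spread among 3 libraries a group that may be technical. They may therefore leave out differences between cultures. For 9 of the 10 genes the whole 95% interval stayed inside 1.2-fold up or down, as it did for 63.7% of all tested genes and for 88.3% of the 8564 that averaged at least 10 CPM (CPM, counts scaled to an equal library size), a level that DGAT1 did not reach. The exception was DGAT1, the least abundant of the 10, whose interval of 0.798 to 1.17 reached lower. No upper bound among the 10 passed 1.17-fold.

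**Figure D1:**
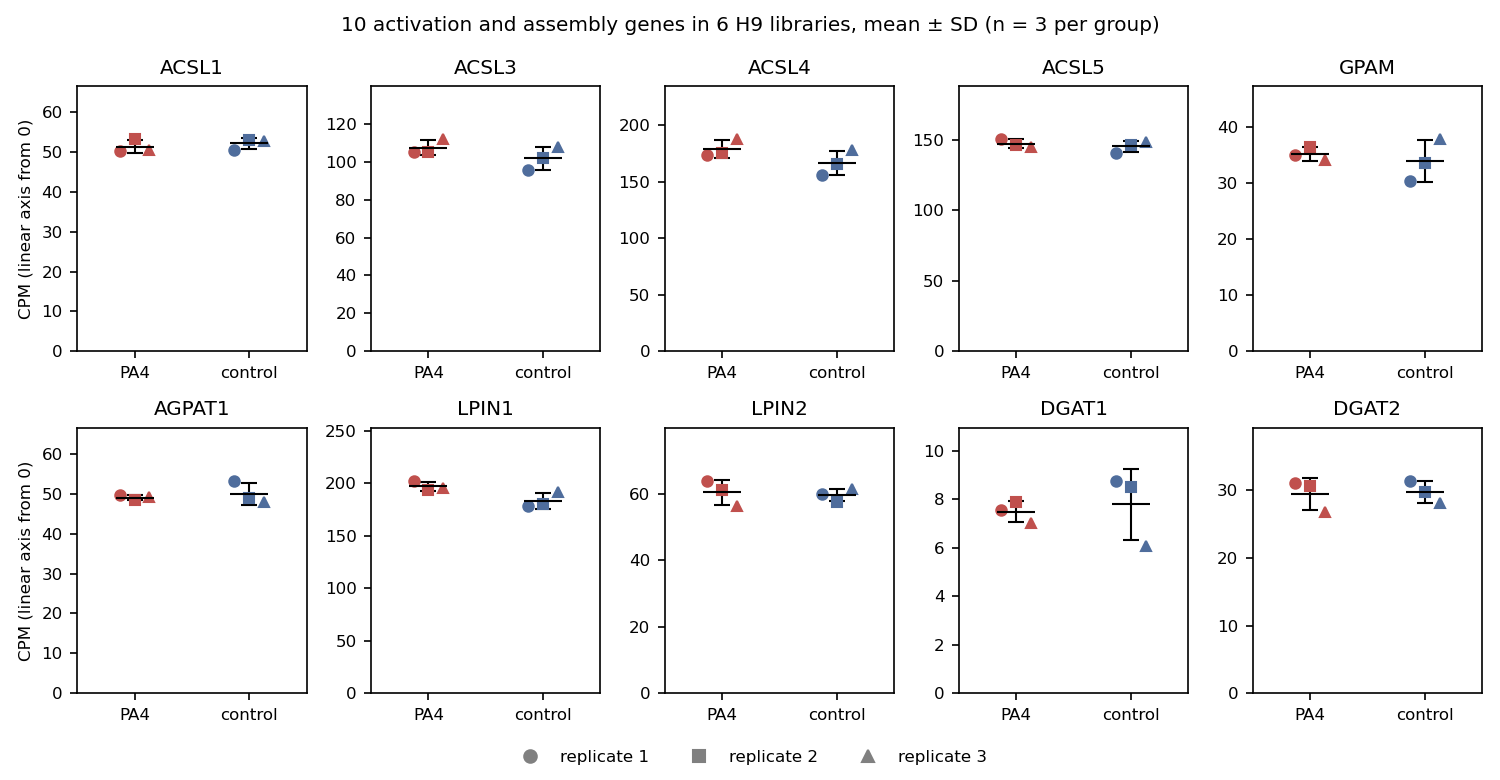
Scaled level (CPM, linear axes from 0) of each of the 10 genes in the 3 PA4 and 3 control libraries, with the mean and SD of each group and 1 symbol per replicate. The groups overlap in 9 panels, and in LPIN1 the PA4 libraries, at 193 to 202 CPM, lie above the control libraries, at 178 to 192 CPM.

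Per length, 3 of the 4 most abundant genes were acyl-CoA synthetases and the other was LPIN1. ACSL5, a synthetase of the endoplasmic reticulum and mitochondria, stood highest, at 39.3 ± 0.807 CPM per kilobase with PA4 and 38.8 ± 1.13 in control (SD, n = 3 each). ACSL4, which prefers arachidonic acid and is known for making cells sensitive to ferroptosis, followed at 33.5 ± 1.43 CPM per kilobase with PA4 and 31.2 ± 2.02 in control, then LPIN1 at 30.5 ± 0.702 with PA4 and 28.4 ± 1.17 in control, and ACSL3 at 24.6 ± 0.916 with PA4 and 23.3 ± 1.38 in control. DGAT2, ACSL1, LPIN2, GPAM and DGAT1 followed, at 12.02, 10.8, 9.70, 5.51 and 2.01 CPM per kilobase with PA4 and 12.1, 10.98, 9.57, 5.30 and 2.09 in control. Over the 6 libraries the ranges of ACSL4 and LPIN1 overlapped, as did those of DGAT2 and ACSL1, and the other neighbours in this order did not overlap.

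ACSL5 lay at the 84.0 percentile of levels per kilobase among tested genes and DGAT1 at the 22.6 percentile. These levels rest on the gene lengths in the deposited table, and AGPAT1 was left out because its deposited length, 16576 bases, is 4.57 times the 3631 exon bases that GENCODE release 29 gives it. With GENCODE exon lengths the leading 4 genes kept their order, ACSL5, ACSL4, LPIN1, ACSL3. If its counts were taken over those exons, which the sources used here do not give, AGPAT1 came next at 13.5 ± 0.177 CPM per kilobase with PA4 and 13.7 ± 0.784 in control (SD, n = 3 each), and DGAT2, whose deposited length of 2454 bases is 0.31 of its GENCODE length, moved to the eighth place with 3.73 ± 0.303 with PA4 and 3.76 ± 0.208 in control.

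**Figure D2:**
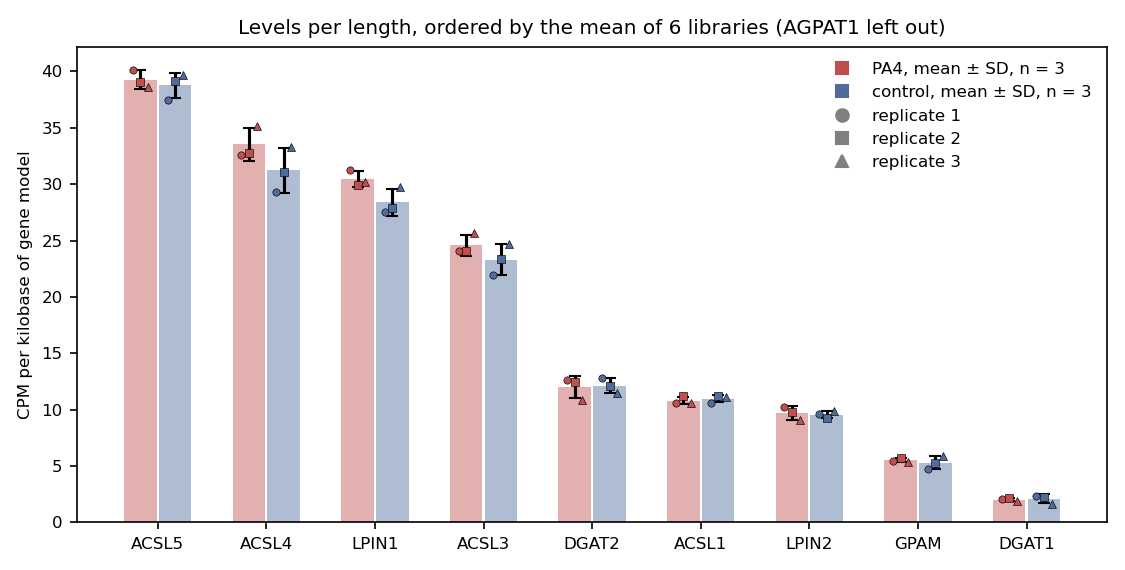
Level per length (CPM per kilobase of the deposited gene model, linear axis) of 9 genes, with bars for the mean and SD of 3 PA4 and 3 control libraries and 1 symbol per replicate. ACSL5 stands highest at about 39 in both groups, and DGAT1 lowest at about 2.

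Among the activation enzymes ACSL4 had the largest fold change. ACSL4, on chromosome X of GRCh38 at 109641335 to 109733257, stood at 174, 175 and 188 CPM in PA4 libraries 1 to 3, against 156, 166 and 178 CPM in control libraries 1 to 3. The highest control library lay above the lower PA4 libraries, so the groups overlapped. The log2 fold change was 0.10 ± 0.05 (SE), or 1.07-fold with a 95% interval of 1.00 to 1.15, with an unadjusted p of 0.0457 and an adjusted p of 0.943 in edgeR.

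ACSL3, an enzyme of the endoplasmic reticulum and of growing lipid droplets, followed the same pattern across libraries. The gene, on chromosome 2 at 222861036 to 222944639, had 105, 105 and 112 CPM with PA4, against 95.5, 102 and 108 CPM in control. Here too the third library was the highest of its group on both sides and the groups overlapped. The fold change was 1.05, with an interval of 0.981 to 1.13 and an edgeR adjusted p of 0.988.

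ACSL5 and ACSL1 differed less between the groups. ACSL1 is best known from liver, heart and adipose tissue. ACSL5, on chromosome 10 at 112374116 to 112428376, had 150.4, 146 and 144 CPM with PA4, against 140.4, 146 and 149 CPM in control, a fold change of 1.01 with an interval of 0.957 to 1.07. ACSL1, on chromosome 4 at 184755595 to 184826594, had 50.3, 53.2 and 50.4 CPM with PA4, against 50.4, 53.0 and 52.8 CPM in control, a fold change of 0.986 with an interval of 0.914 to 1.06. In both genes the libraries of the groups were interleaved. ACSL5 shares 3.4% of its exon bases with ZDHHC6 on the opposite strand, which held 1406 to 1828 counts with PA4 and 1401 to 1522 in control.

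The make-up of the synthetase pool was close in both groups. Summed per kilobase over the 4 enzymes, ACSL5 gave 36.3 ± 1.17% with PA4 and 37.2 ± 0.654% in control, and ACSL4 gave 31.0 ± 0.871% with PA4 and 29.9 ± 0.615% in control (SD, n = 3 each). ACSL3 gave 22.7 ± 0.510% with PA4 and 22.3 ± 0.307% in control, and ACSL1 9.99 ± 0.416% with PA4 and 10.5 ± 0.264% in control. These shares rest on the deposited lengths, which are 0.602 of the GENCODE exon length for ACSL3, 0.755 for ACSL1, 0.832 for ACSL4 and 0.884 for ACSL5. With GENCODE lengths the share of each enzyme would differ in both groups.

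Within-library ratios, which do not depend on scaling, compared enzymes of the same step, or GPAM and AGPAT1 of successive steps. With 3 against 3 libraries the exact p cannot fall under 0.1. The test could therefore call none of the 7 ratios, and their p-values serve as description only. The log2 ratio of ACSL3 to ACSL4 averaged -0.738 ± 0.0091 with PA4 and -0.712 ± 0.012 in control (SD, n = 3 each), and the groups did not overlap, but the difference was only -0.026. Its exact two-sided permutation p was 0.1, the smallest that 3 against 3 can give, and 0.35 adjusted over the 7 ratios. For ACSL1 over ACSL4 the difference was -0.13 (exact p = 0.2), for ACSL3 over ACSL1 it was 0.10 (exact p = 0.2), and for ACSL3 over ACSL5 it was 0.058 (exact p = 0.4), with adjusted p-values of 0.35, 0.35 and 0.56.

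In the acylation steps GPAM and AGPAT1 each had PA4 libraries inside the control range. GPAM, on chromosome 10 at 112149865 to 112227677, is the mitochondrial glycerol-phosphate acyltransferase that commits an acyl-CoA to glycerolipid. It had 35.0, 36.45 and 34.1 CPM with PA4, against 30.3, 33.5 and 37.8 CPM in control. The control libraries alone spanned more than the PA4 libraries and enclosed them. The fold change was 1.04, with an interval of 0.934 to 1.16 and an edgeR adjusted p of 0.993.

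AGPAT1, which makes phosphatidate in the endoplasmic reticulum, had 49.6, 48.3 and 49.1 CPM with PA4, against 53.1, 48.8 and 47.8 CPM in control. The control libraries again enclosed the PA4 libraries, and the fold change was 0.982 with an interval of 0.906 to 1.06. AGPAT1 lies on chromosome 6 of GRCh38 at 32168212 to 32178108 and shares 29.9% of its exon bases with PPT2-EGFL8 on the opposite strand, which held 0 to 5 counts per library. Whether counting used strand is not given in the sources used here, so reads of such a pair may not have been told apart. The GPAM to AGPAT1 ratio differed by 0.085 log2 between groups (exact two-sided permutation p = 0.7, adjusted 0.817).

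LPIN1 had a fold change close to that of ACSL4, and without GC correction it was the only one of the 10 whose groups did not overlap. The lipins convert phosphatidate to diacylglycerol and can also act in the nucleus as coregulators of transcription. LPIN1, on chromosome 2 at 11677544 to 11827409, had 202, 193 and 195 CPM with PA4, against 178, 179.9 and 192 CPM in control. Each PA4 library lay above each control library, although the gap between PA4 replicate 2 and control replicate 3 was small, and 5.91% of all tested genes had PA4 libraries above control libraries in this way, 5.31% below and 11.2% in either direction. The log2 fold change was 0.10 ± 0.04 (SE), or 1.07-fold with an interval of 1.01 to 1.14, with an unadjusted p of 0.0184 and an adjusted p of 0.827 in edgeR.

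LPIN2, the other lipin expressed here, on chromosome 18 at 2916994 to 3013144, had 63.8, 61.1 and 56.3 CPM with PA4, against 59.9, 57.7 and 61.3 CPM in control. The groups overlapped, and its fold change was 1.01 with an interval of 0.936 to 1.10. The log2 ratio of LPIN1 to LPIN2 averaged 1.71 ± 0.075 with PA4 and 1.62 ± 0.041 in control (SD, n = 3 each), a difference of 0.086 with an exact permutation p of 0.1 and 0.35 adjusted over the 7 ratios. As with ACSL3 to ACSL4, the groups of this ratio did not overlap, at 1.66 to 1.79 with PA4 and 1.57 to 1.65 in control. LPIN3, the remaining lipin, was near 0, at 0.033 CPM with PA4 and 0.0175 CPM in control.

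The triglyceride synthesis genes DGAT1 and DGAT2 had negative log2 fold changes that were small against their errors and turned positive without control replicate 1, at 0.040 for DGAT1 and 0.031 for DGAT2. DGAT2, on chromosome 11 at 75768778 to 75801534, had 31.1, 30.7 and 26.7 CPM with PA4, against 31.4, 29.8 and 28.1 CPM in control, a fold change of 0.993 with an interval of 0.894 to 1.10. DGAT1, with only 116 to 180 counts per library, had 7.58, 7.90 and 7.01 CPM with PA4, against 8.75, 8.53 and 6.09 CPM in control. In both genes the groups overlapped, and control replicate 3 set the low end of DGAT1. The fold change of DGAT1 was 0.964, and without control replicate 3 its log2 fold change was -0.20 in place of -0.052, whereas it was 0.017 without control replicate 2. DGAT1 shares 3.36% of its exon bases with HSF1 on the opposite strand, which held 1280 to 1596 counts with PA4 and 1226 to 1503 in control. A further gene, AC233992.1 on the same strand, shares 10.75% of the DGAT1 exon bases and has no counts under that name. The log2 ratio of DGAT1 to DGAT2 differed by -0.024 (exact two-sided permutation p = 1).

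The fold changes of the 10 genes lay below those of the sterol and desaturase genes that were called higher. HMGCS1, of the mevalonate pathway, stood at 669.9 ± 2.02 CPM with PA4 and 345 ± 17.5 CPM in control (SD, n = 3 each), and the lower interval bounds of its fold change and those of INSIG1 and SCD were 1.84, 1.56 and 1.22. Each of these 3 bounds lies above 1.17, the highest upper bound among the 10 genes. FASN, the fatty acid synthase gene, was not called, with an edgeR adjusted p of 0.173. Its interval was 1.08 to 1.26 and overlapped those of LPIN1 and ACSL4. SREBF1, which encodes the SREBP form most tied to fatty acid genes, was at 0.962 of control with an interval of 0.874 to 1.06. SREBF2, which encodes the form most tied to sterol genes, stood at 144.9 ± 2.03 CPM with PA4 and 130.03 ± 4.67 CPM in control (SD, n = 3 each), with an edgeR adjusted p of 0.247. That p was 0.00181 with GC-corrected offsets and 0.0190 without control replicate 1.

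**Figure D3:**
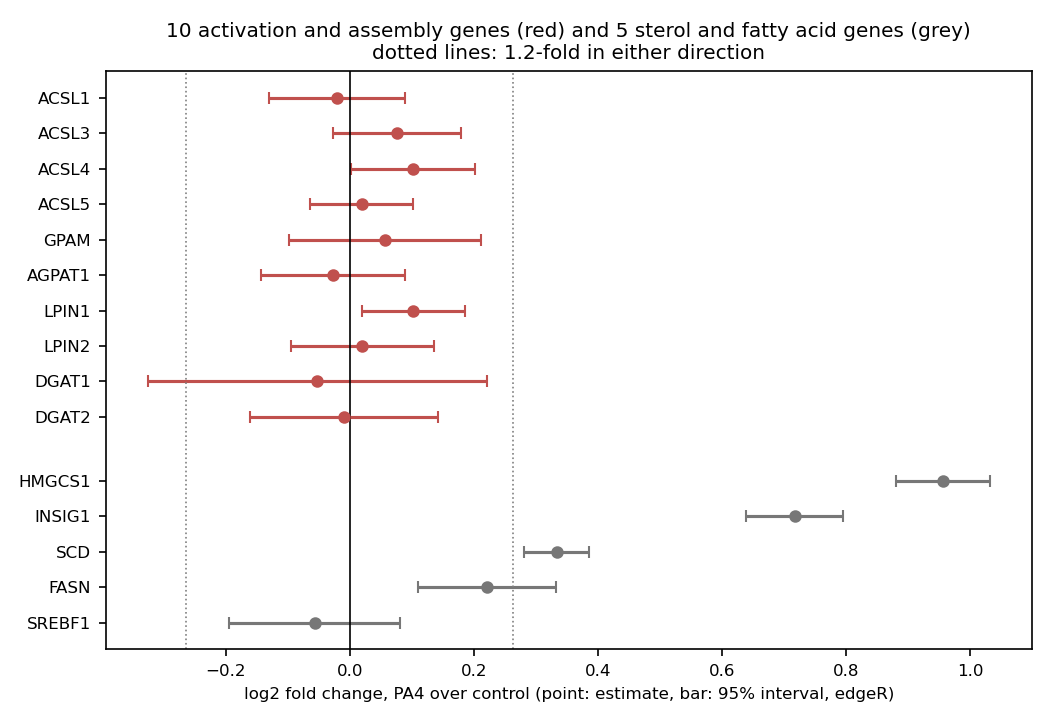
log2 fold change of PA4 over control with its 95% interval for the 10 genes (red) and for 5 genes of sterol and fatty acid regulation (grey), with dotted lines at 1.2-fold. The upper ends of the red bars stay below the lower ends of HMGCS1, INSIG1 and SCD, and 9 of the 10 red bars lie between the dotted lines.

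Promoters are shown for the 3 genes with the largest fold changes, which were picked by those values and which edgeR did not call. The windows below are the 250 bases before the RefSeq start on GRCh38.p14, 5′ to 3′ on the strand of the gene, just upstream of the first exon, for the start of ACSL3 at chr2:222860786-222861035 (+ strand), that of ACSL4 at chrX:109733258-109733507 (- strand) and the third of 3 LPIN1 starts at chr2:11746382-11746631 (+ strand). The last lies inside the span of the gene, downstream of its other starts, and which of these starts H9 cells use was not tested. Capitals mark the GC box GGGCGG, its reverse complement, and the CCAAT box.
ACSL3: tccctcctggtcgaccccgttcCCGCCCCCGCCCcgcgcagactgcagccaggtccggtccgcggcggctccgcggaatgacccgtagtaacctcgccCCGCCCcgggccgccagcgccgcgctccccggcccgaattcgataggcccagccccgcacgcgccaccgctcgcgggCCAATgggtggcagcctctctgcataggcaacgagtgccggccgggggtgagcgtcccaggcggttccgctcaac
ACSL4: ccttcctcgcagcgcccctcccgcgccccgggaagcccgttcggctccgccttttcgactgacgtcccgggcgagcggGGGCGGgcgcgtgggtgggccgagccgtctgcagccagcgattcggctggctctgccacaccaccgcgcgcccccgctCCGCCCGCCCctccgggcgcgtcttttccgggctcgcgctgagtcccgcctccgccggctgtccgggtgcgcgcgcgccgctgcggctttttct
LPIN1: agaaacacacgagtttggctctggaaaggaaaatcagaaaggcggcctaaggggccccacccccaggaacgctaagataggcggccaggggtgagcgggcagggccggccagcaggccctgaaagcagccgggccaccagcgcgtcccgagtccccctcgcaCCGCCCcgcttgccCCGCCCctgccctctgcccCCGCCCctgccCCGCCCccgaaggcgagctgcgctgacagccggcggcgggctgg
Each motif was searched on both strands. The ACSL3 window holds 3 GC boxes and 1 CCAAT box, the ACSL4 window 3 GC boxes, of which a pair overlaps, and the LPIN1 window 4 GC boxes. The other LPIN1 starts have 0 and 1 GC boxes. Of 35116 windows of the same length, 42.6% hold a GC box and 32.0% a CCAAT box. The letters TCACNCCAC, a loose form of the sterol regulatory element, occur in 0.883% of windows and are not in these 3, nor in the windows of HMGCS1, INSIG1 and SCD. Since the search found no match even in these genes of sterol regulation, a window without the letters may still hold or lie near such an element. Whether SREBP binds any of these promoters was not tested. The E-box CACGTG, in 6.34% of windows, is not in these 3 windows or those of HMGCS1 and SCD, but the INSIG1 window holds it. Among the other members with a window, TCACNCCAC occurs in 1 of 5 windows of ACSL1 and CACGTG in 1 of 2 windows of LPIN2.

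Both ACSL3 and ACSL4 have transcripts of low GC content, 38.1% and 37.4%, although their promoters are at 75.2% and 77.2%. Libraries differed along GC content. Over 8493 genes the Spearman rho between transcript GC and the log2 level relative to the mean of all libraries was 0.163, 0.327 and -0.428 in PA4 libraries 1 to 3 and 0.731, -0.151 and -0.669 in control libraries 1 to 3, where genes are not independent replicates. The third library was the highest of its group for both low-GC synthetases, and the first control library the lowest.

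With a GC correction fitted to each library, the 2 synthetases spread less within groups and their estimates changed little. ACSL4 was at 177, 177 and 184 GC-corrected CPM with PA4, against 164, 165 and 169.5 in control, and ACSL3 at 106, 106 and 109.6 with PA4, against 99.9, 101 and 103 in control. The groups of both genes no longer overlapped, as was the case for 9.09% of tested genes with PA4 above and 6.83% with PA4 below. The log2 fold change of ACSL4 was 0.11 ± 0.03 (SE) with an unadjusted p of 0.000593 and an edgeR adjusted p of 0.0570, that of ACSL3 was 0.083 ± 0.032 with an adjusted p of 0.318, and that of LPIN1 was 0.10 ± 0.03 with an adjusted p of 0.117. This fit gave 3 of the 10 genes higher at an unadjusted p under 0.05, where it gave 6.22% of all tested genes, and called 0 of the 10, where it called 0.942%. ACSL4 was called in 1 of the 15 alternative settings, in which 1.1% of tested genes were called.

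**Figure D4:**
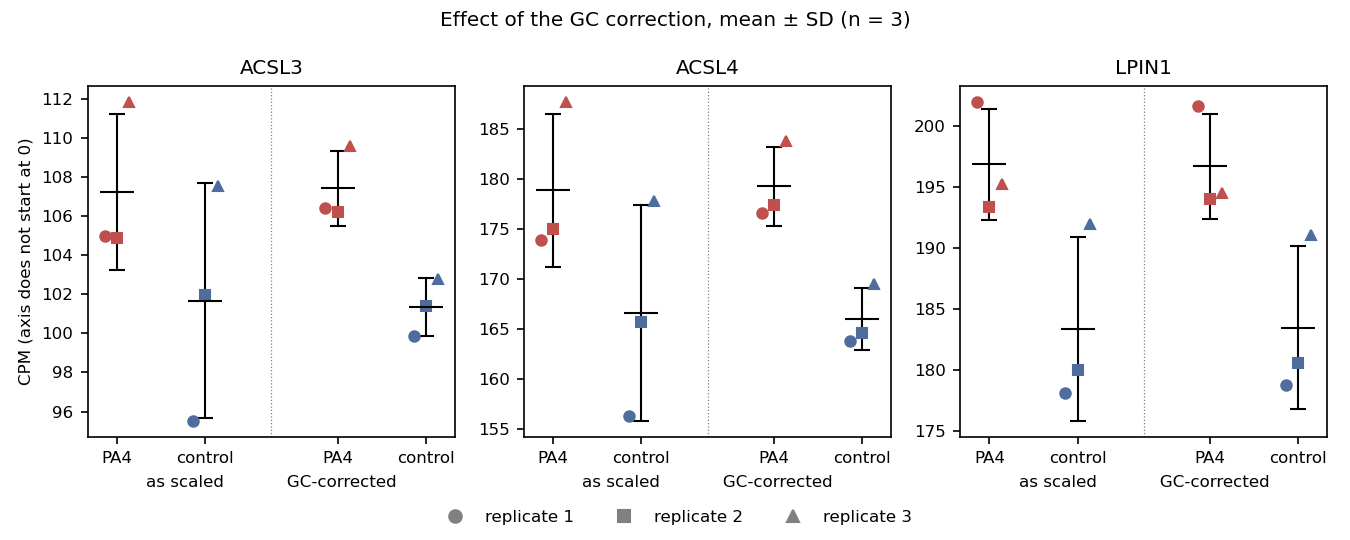
Level of ACSL3, ACSL4 and LPIN1 in each library (CPM, axes not from 0), as scaled on the left of each panel and after GC correction on the right, with the mean and SD of 3 PA4 and 3 control libraries. The SD of the control libraries of ACSL4 is 10.8 CPM as scaled and 3.10 CPM after correction, and the PA4 and control libraries of ACSL3 and ACSL4 separate on the right.

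Neighbouring steps of the pathway were described from 13 lists with 156 genes, of which 104 were tested. The edgeR test called 0 of the 104 higher and 0 lower, beside 0.215% and 0.0165% of all tested genes. Without adjustment 7 of the 104 were higher and 2 lower at p under 0.05, beside 2.69% and 2.6% of all tested genes. Their median log2 fold change was -0.00018 and 52 were positive. DESeq2 and limma-voom called 0 of them as well. Among other acyl-CoA synthetases, with 12 tested and a median of -0.027, ACSS2 and AACS, which activate acetate and acetoacetate rather than long-chain fatty acids, had positive values. ACSS2 stood at 15.7 ± 1.03 CPM with PA4, against 11.8 ± 1.54 CPM in control (SD, n = 3 each), without overlap between the groups, a log2 fold change of 0.41 ± 0.10 (SE) with an edgeR adjusted p of 0.173. It was called in 4 of the 15 alternative settings. AACS, named after its values were seen, was at 0.22 ± 0.06 with an edgeR adjusted p of 0.260. It was also called in 4 of the 15 alternative settings, among them GC-corrected offsets (adjusted p = 0.00737) and leaving out control replicate 1 (adjusted p = 0.0115). ACSM3, a medium-chain synthetase also named after its values were seen, was at 6.91 CPM with PA4 and 8.23 CPM in control, a log2 fold change of -0.25 with an edgeR adjusted p of 0.943.

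Relatives of the 10 genes had small fold changes. Of 7 other glycerol-phosphate and lysophosphatidate acyltransferases 0 had an unadjusted edgeR p under 0.05, beside 5.29% of all tested genes. Their log2 fold changes ran from -0.049 to 0.058. Of 5 lipin relatives and regulators 0 had such a p, with a median of 0.0015 and a range of -0.081 to 0.18. With so few genes, a count of 0 does not set these lists apart from all tested genes. GPAT4, a reticulum enzyme of the same step as GPAM, stood at 75.7 CPM with PA4 and 73.3 CPM in control, whereas GPAT2 had no counts and GPAT3 averaged 0.485 CPM with PA4 and 0.242 CPM in control. AGPAT3 was at 194 CPM with PA4 and 186 CPM in control, a log2 fold change of 0.058. DBI, the acyl-CoA binding protein, was at 113 ± 2.72 CPM with PA4 and 106 ± 3.31 CPM in control (SD, n = 3 each), with an unadjusted p of 0.0329 and an edgeR adjusted p of 0.920. MBOAT1, a lysophospholipid acyltransferase, and TAMM41, which makes CDP-diacylglycerol in mitochondria, were at 0.14 ± 0.06 and 0.17 ± 0.07 log2 (SE), with edgeR adjusted p-values of 0.936 and 0.901.

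**Figure D5:**
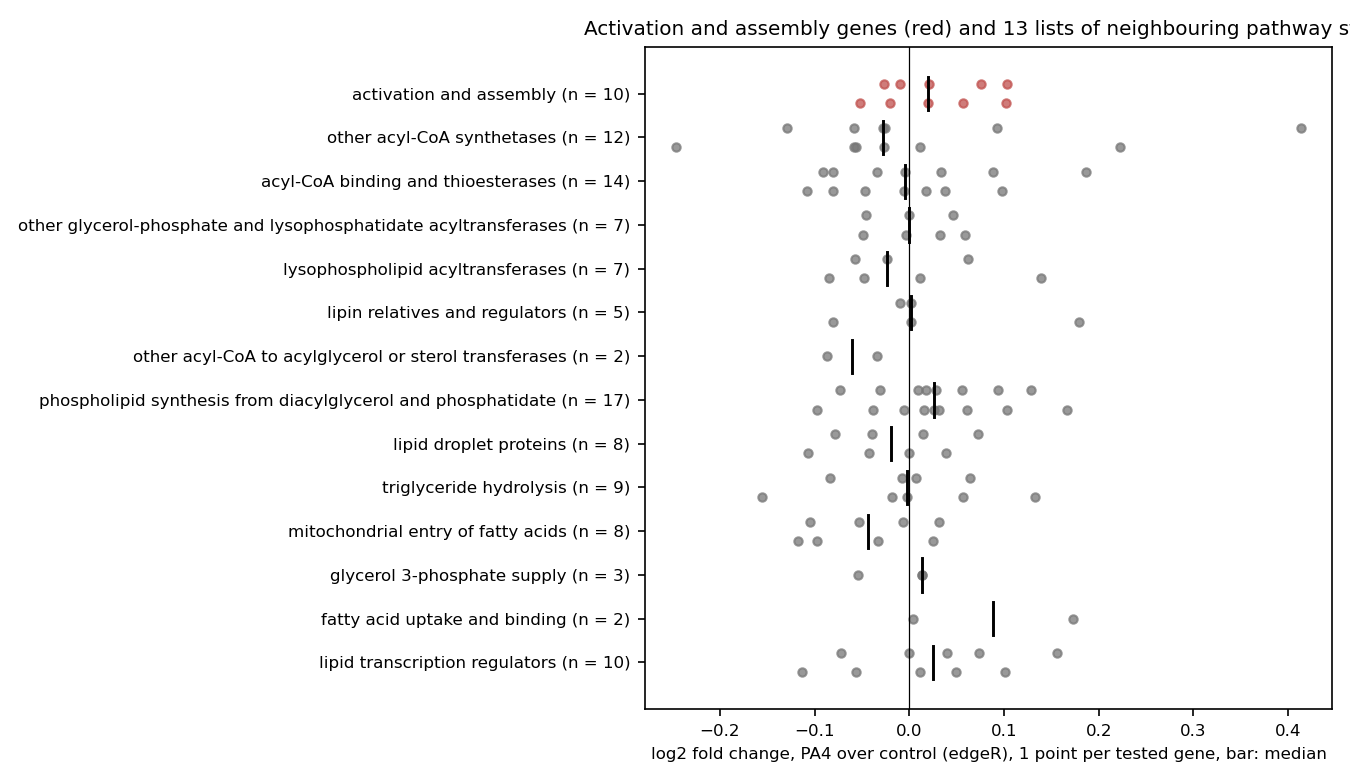
log2 fold change of PA4 over control for each tested gene, with the 10 genes of activation and assembly (red) above 13 lists of neighbouring steps (grey) and a bar at each median. Points lie within about 0.25 of 0 in either direction except ACSS2, at 0.41.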

How the data were processed

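RNA of 6 H9 libraries, 3 with PA4 and 3 with vehicle, was read from 1 table, in which the authors deposited unnormalized read counts and a length for each gene symbol. Per the submitters' processing notes, reads were handled with Trimmomatic 0.39, fastp 0.23.2, STAR 2.7.9a and featureCounts of Subread 1.6.4 on hg38; the sources used here give neither annotation nor strand setting. The fit used edgeR 4.0.16 under R 4.3.3, with filterByExpr (12107 genes kept), TMM scaling and the two-sided quasi-likelihood test (glmQLFit, glmQLFTest) of PA4 over control, without covariates. Benjamini-Hochberg adjustment covered every gene in the fit, and a call is an adjusted p under 0.05. Standard errors of log2 fold changes had a median of 0.069. Alternatives were DESeq2 1.42.0, limma-voom (limma 3.58.1), other scalings and filters, GC-corrected offsets, a replicate block and leaving out each library. Ratios used a prior count of 0.5 and exact permutation tests (SciPy 1.17.1). GC offsets were smoothing splines on the GC content of the longest GENCODE transcript.

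The members and lists were chosen with earlier results of these data known. Genes named from each pathway list were any called gene, or else the one with the largest absolute log2 fold change at a mean of at least 5 CPM and an unadjusted p under 0.05. HMGCS1, INSIG1, SCD, FASN and SREBF1 were named whatever their values, and 1 result is not reported here. Other list genes (AGPAT3, GPAT2, GPAT3, GPAT4, LPIN3 and those marked in the text) were named after their values were seen. Of 212 list entries 203 matched by symbol, 7 by an older name and 2 had no match. RefSeq promoter windows (GRCh38.p14) were found for 8 of the 10 genes. Gene coordinates are those of RefSeq on GRCh38, and exon lengths and shared exon bases are those of GENCODE release 29. Levels on GENCODE lengths were added after seeing the data. The bound of 1.2-fold for intervals was also set after seeing the data.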

Additional observations from a re-analysis of the deposited data

How the results depend on the processing

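Of the 10 genes, 0 were called higher and 0 lower in each of 15 alternative settings except the GC-corrected offsets with the replicate block, where 1, ACSL4, was called higher (log2 fold change 0.11, edgeR adjusted p = 0.0346, against 0.0570 without the block and 0.943 without either). All fold changes of the 10 kept their sign in the settings that kept the 6 libraries. Leaving out control replicate 1 turned the sign of ACSL5 (range over the left-out libraries -0.0043 to 0.037), GPAM (-0.018 to 0.14), AGPAT1 (-0.057 to 0.020), DGAT1 (-0.20 to 0.040) and DGAT2 (-0.048 to 0.054). Leaving out PA4 replicate 1 or control replicate 2 turned that of LPIN2 (-0.019 to 0.068), control replicate 2 that of DGAT1 and PA4 replicate 3 that of DGAT2. Leaving out a library also turned the ratios GPAM to AGPAT1 (-0.039 to 0.20) and DGAT1 to DGAT2 (-0.15 to 0.048). The ranges were 0.082 to 0.14 for LPIN1, 0.058 to 0.15 for ACSL4, 0.032 to 0.12 for ACSL3 and -0.045 to -0.0049 for ACSL1. The cause was not tested.

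Over all genes 26 were called higher and 2 lower. The counts were 53 and 9 without a low-count filter, 50 and 9 with the replicate block, 93 and 21 with GC-corrected offsets, 106 and 27 with offsets and block, and 36 and 4 in DESeq2. They ran between 16 and 50 higher and between 1 and 24 lower when a library was left out. Of the genes in the pathway lists 0 were called higher, and 2 were without the filter, 1 with the block, 3 with GC-corrected offsets, 3 with offsets and block, and 0 to 2 when a library was left out, always among ACSS2, AACS and SREBF2 (the last 2 without control replicate 1).

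No label says that the replicate numbers mark a shared batch, and whether they do was not settled by the data: libraries of 1 number deviated from their group means with correlations of 0.16, -0.088 and 0.42, and 2 of 3 PA4 libraries correlated best with their own number. With the block the log2 fold change was 0.10 for LPIN1 and 0.10 for ACSL4, neither called. Paired sign flips of the ratios cannot give p under 0.25. DGAT1 had the lowest counts of the 10, at 116 to 180 per library, and the part of depth in its wide interval was not tested.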

Other observations

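Steps that use up or store the products of this pathway were also near their control levels. Of 17 tested genes of phospholipid synthesis 12 had a log2 fold change above 0, the median was 0.026, and edgeR called 0, as did DESeq2 and limma-voom. Without adjustment edgeR gave 2 of them higher and 0 lower at p under 0.05, beside 2.69% and 2.6% of all tested genes, of which 5761 of 12107 had a log2 fold change above 0. CHKA, the choline kinase that starts phosphatidylcholine synthesis, named after its values were seen, was at 59.5 CPM with PA4 and 54.4 CPM in control. Of 8 tested genes of mitochondrial fatty acid entry and oxidation 2 had positive values, with a median of -0.043. ACADM, the medium-chain acyl-CoA dehydrogenase, was at 80.5 ± 1.62 CPM with PA4 and 86.5 ± 4.92 CPM in control (SD, n = 3 each), with an unadjusted p of 0.0473 and an edgeR adjusted p of 0.943.

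Lipid droplet and triglyceride hydrolysis genes gave 0 of 8 and 0 of 9 at p under 0.05 in edgeR before adjustment, beside 5.29% of all tested genes. Lists this short cannot be set apart from that share. Their medians were -0.020 and -0.0028 on the log2 scale. The droplet coat gene PLIN2, named after its values were seen, was at 17.7 CPM with PA4 and 18.3 CPM in control. SOAT1, which esterifies sterols with acyl-CoA, also named after its values were seen, was at 289 CPM with PA4 and 296 CPM in control.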
